A study of Mus musculus with 12 samples.

Results

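The genes described here are 36 genes of the skeletal muscle sarcomere and of muscle contraction, chosen by symbol from the 56691 genes of a mouse ear RNA-seq table. They encode thick filament proteins (8 genes), fast or shared thin filament proteins (5), slow troponins (3), Z-disc and cytoskeletal proteins (9), calcium-handling proteins (5), proteins of energy and oxygen supply (4) and proteins of protein turnover (2). All 36 were found in the table, and all 36 passed the filter on low values, which asked for 4 or more libraries with an FPKM of at least 1. FPKM is the number of counted fragments scaled to exon length and library total, so levels of different genes can be set side by side.

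The libraries come from the ears of wild-type mice in 3 groups of 4. IsoL ears were treated with isoliensinine, a plant alkaloid. Model ears were treated with MC903, a vitamin D analogue that is applied to mouse skin to produce an inflammation resembling atopic dermatitis. Blank ears were not treated. Strain, sex, age, doses and days are not stated, nor is it stated whether the IsoL ears also received MC903. Biological replicates are stated for each group, but the labels do not tie a library to an animal, and the spread behind each p-value is that of libraries, which may be technical.

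Striated muscle shortens when myosin heads of the thick filament pull on actin of the thin filament within the sarcomere, the unit between neighbouring Z-discs. Calcium released from the sarcoplasmic reticulum binds troponin and frees the sites that myosin grips, and a calcium pump then returns it to the store. Fibres differ in speed, and fast fibres use myosin heavy chains IIa (Myh2), IIx (Myh1) or IIb (Myh4) with fast troponins, whereas slow fibres use other isoforms. In a mouse ear, skeletal muscle lies beside skin and cartilage, as the small muscles that move the ear.

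The 3 fast myosin heavy chain genes lie next to each other on chromosome 11, with Myh2 at chr11:67061853-67088343, Myh1 at chr11:67090878-67115401 and Myh4 at chr11:67128855-67151272 in the coordinates of the deposited table, all on the plus strand. No build is named for that table. The 250 bases before the RefSeq start of each gene are shown, 5′ to 3′ on the plus strand of GRCm38.p6. The groups shifted these neighbouring genes by unequal amounts, and whether these bases bear on that was not tested. Capitals mark matches to an E-box (CAGCTG, the same on both strands), the MEF2 motif, the CArG motif of serum response factor and TATAAA on either strand. The window of Myh4 is chr11:67237562-67237811, that of Myh1 is chr11:67199852-67200101 and that of Myh2 is chr11:67170777-67171026.
Myh4: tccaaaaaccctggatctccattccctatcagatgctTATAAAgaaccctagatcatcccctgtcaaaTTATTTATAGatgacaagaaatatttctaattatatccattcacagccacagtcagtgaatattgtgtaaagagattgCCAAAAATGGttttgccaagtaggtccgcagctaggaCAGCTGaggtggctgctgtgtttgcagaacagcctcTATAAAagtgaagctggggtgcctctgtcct
Myh1: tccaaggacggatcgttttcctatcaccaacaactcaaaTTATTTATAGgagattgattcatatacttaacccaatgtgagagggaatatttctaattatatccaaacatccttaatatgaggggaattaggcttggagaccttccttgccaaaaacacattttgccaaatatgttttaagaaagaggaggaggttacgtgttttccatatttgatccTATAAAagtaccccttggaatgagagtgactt
Myh2: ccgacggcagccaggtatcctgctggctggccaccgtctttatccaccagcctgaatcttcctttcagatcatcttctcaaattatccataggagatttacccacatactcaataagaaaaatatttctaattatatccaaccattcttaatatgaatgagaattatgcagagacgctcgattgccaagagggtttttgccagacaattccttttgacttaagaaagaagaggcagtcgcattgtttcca

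The window of Myh4 held 1 match each to the E-box, the MEF2 motif and the CArG motif, and 3 to TATAAA. That of Myh1 held 1 MEF2 match, no E-box and no CArG match, and 2 TATAAA matches. In both genes, 1 TATAAA match on the minus strand lay inside the MEF2 match. The window of Myh2 held no match before its start and 1 TATAAA match in the 50 bases after it, which are not shown. The TATAAA match nearest each start began at base -31 in Myh4, -32 in Myh1 and 10 in Myh2. The windows may therefore not cover equivalent stretches of the 3 genes. Of the 36 members, 28 had a RefSeq window of 250 bases before to 50 after a start. An E-box was found in 15 of these 28 genes (53.6%) and in 18.3% of the 27025 genes with a window. The MEF2 motif was found in 6 (21.4%, against 3.70%), the CArG motif in 3 (10.7%, against 1.81%) and TATAAA in 7 (25.0%, against 15.7%). These matches are letters in a window and carry no measurement of binding.

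Total counts ran from 13884927 to 18771831 per library. The scaling factors of the trimmed mean of M-values (TMM) were 0.931 to 0.969 in IsoL, 0.979 to 0.983 in Model and 1.075 to 1.083 in Blank. Without these factors the median log2 change of all genes moved to -0.15 in Model against Blank, -0.05 in IsoL against Model and -0.18 in IsoL against Blank, so every log2 change and call below is relative to TMM scaling. Values per library, percents of the Blank mean, shares and the order of libraries are in deposited FPKM or counts, to which no TMM factor was applied. All fold changes and adjusted p-values come from the quasi-likelihood test of edgeR with Benjamini-Hochberg adjustment over 15403 genes, and a gene is called at an adjusted p under 0.05. Comparisons that share a group are not independent, since both Model and IsoL were set against the same Blank libraries. Model against Blank and IsoL against Model share the Model libraries with opposite sign. A low value in Model by chance gives a fall in the first and a rise in the second.

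The set was checked against its label by its levels. In untreated ears the members ranged from 2.72 ± 0.314 FPKM for Tnni1 to 444 ± 13.6 FPKM for Tnnt3 (SD, n = 4). The highest after Tnnt3 were Acta1 at 386 ± 15.3 FPKM, Mylpf at 327 ± 17.8 FPKM, Atp2a1 at 259.7 ± 9.03 FPKM and Mb at 239 ± 16.0 FPKM. Each fast troponin stood above its slow form, for example Tnni2 at 158 ± 7.90 FPKM above Tnni1. The reverse order held for myosin-binding protein C, with the fast form Mybpc2 at 11.3 ± 1.02 FPKM and the slow form Mybpc1 at 68.4 ± 3.50 FPKM. Neighbours in the order of levels such as Tnni2 and Myh4, at 158 ± 7.90 and 151 ± 5.80 FPKM, did not differ beyond their spread. Of 8 heart muscle markers, Myl7, Nppb and Tnni3 passed the filter, and Myh6, Myl4, Nppa, Ryr2 and Tnni3k did not. Over the 4 libraries of a group, Myh6 had 258 counts in IsoL, 136 in Model and 397 in Blank, and Myl4 had 217 in IsoL, 205 in Model and 143 in Blank. Nppa had 3 counts in IsoL, 9 in Model and 3 in Blank.

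In ears treated with MC903, nearly the whole set of muscle genes was lower than in untreated ears. Of the 36 members, 34 fell in Model against Blank, none rose, and Xirp2 and Trim63 were not called. All 36 estimates lay below 0, so none was higher at an unadjusted p under 0.05 in edgeR, and DESeq2 and limma called 0 higher as well. The share called lower among all tested genes was 34.9%. These were 5369 of the 10805 genes called, and the others were higher. The median change of the members was -0.68 on the log2 scale, beside -0.01 for all genes tested, and the members ran from -1.43 (Pvalb) to -0.07 (Xirp2). For 35 of the 36, every Model library had a lower FPKM than every Blank library, which held for 42.4% of all tested genes. Trim63 was the member whose libraries overlapped. With FPKM divided by the TMM factors the count was 34, beside 33.4% of all tested genes, and Xirp2 overlapped too. These values are relative to the other RNA of a library, so the amount of muscle RNA per ear was not measured. In whole ears, fewer muscle cells, less of these RNAs per muscle cell and more RNA from other cells cannot be told apart.

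Between isoliensinine-treated and MC903-treated ears most of the muscle genes were not called, and those called went in both directions. Of the 36 members, 8 rose in IsoL against Model (Myh4, Mybpc2, Tnni1, Actn3, Atp2a1, Casq1, Pvalb and Ckm), 5 fell (Myh1, Mybpc1, Neb, Tcap and Xirp2) and 23 were not called. Among all tested genes 24.1% were called higher and 25.1% lower. The 8 of 36 higher are close to the first share and the 5 of 36 lower lie under the second. These counts therefore show no rise or fall particular to the members. The members' median was 0.12, beside 0.01 for all genes. The counts depended on single libraries: without IsoL replicate 1, 16 members were higher and 3 lower, and without IsoL replicate 3, 7 were higher and 10 lower, with a median of -0.01. The number lower was also 3 without Model replicate 1 or Model replicate 3, and 8 without IsoL replicate 2. Myh4, Mybpc2 and Pvalb were called higher, and Myh1, Tcap and Xirp2 lower, in all 17 alternative settings. In FPKM, Myh1 and Xirp2 were lower in every IsoL library than in every Model library, as were 26.0% of all tested genes, and Mybpc2 was higher in every IsoL library, as were 16.7%. With FPKM divided by the TMM factors, Myh1 overlapped, which left 1 member lower (beside 22.1% of all genes) and 1 higher (beside 20.6%).

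Set against untreated ears, the isoliensinine-treated ears were again lower for nearly every member. In IsoL against Blank, 34 of 36 members fell and none rose, beside 34.0% of all tested genes called lower. These were 5236 of the 10853 genes called, and the others were higher. All 36 estimates were again below 0, at any p, and DESeq2 and limma called 0 higher. Mybpc2 and Tnni1 were not called. The median was -0.65, beside 0.02 for all genes, and the lowest was Tcap at -0.94 ± 0.08. For 33 members every IsoL library lay under every Blank library, as it did for 42.4% of all genes, and Mybpc2, Tnni1 and Actn3 overlapped. With FPKM divided by the TMM factors it was 29 members, beside 30.2% of all genes, and Actn2, Des, Tnnt1 and Trim63 also overlapped.

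**Figure D1:**
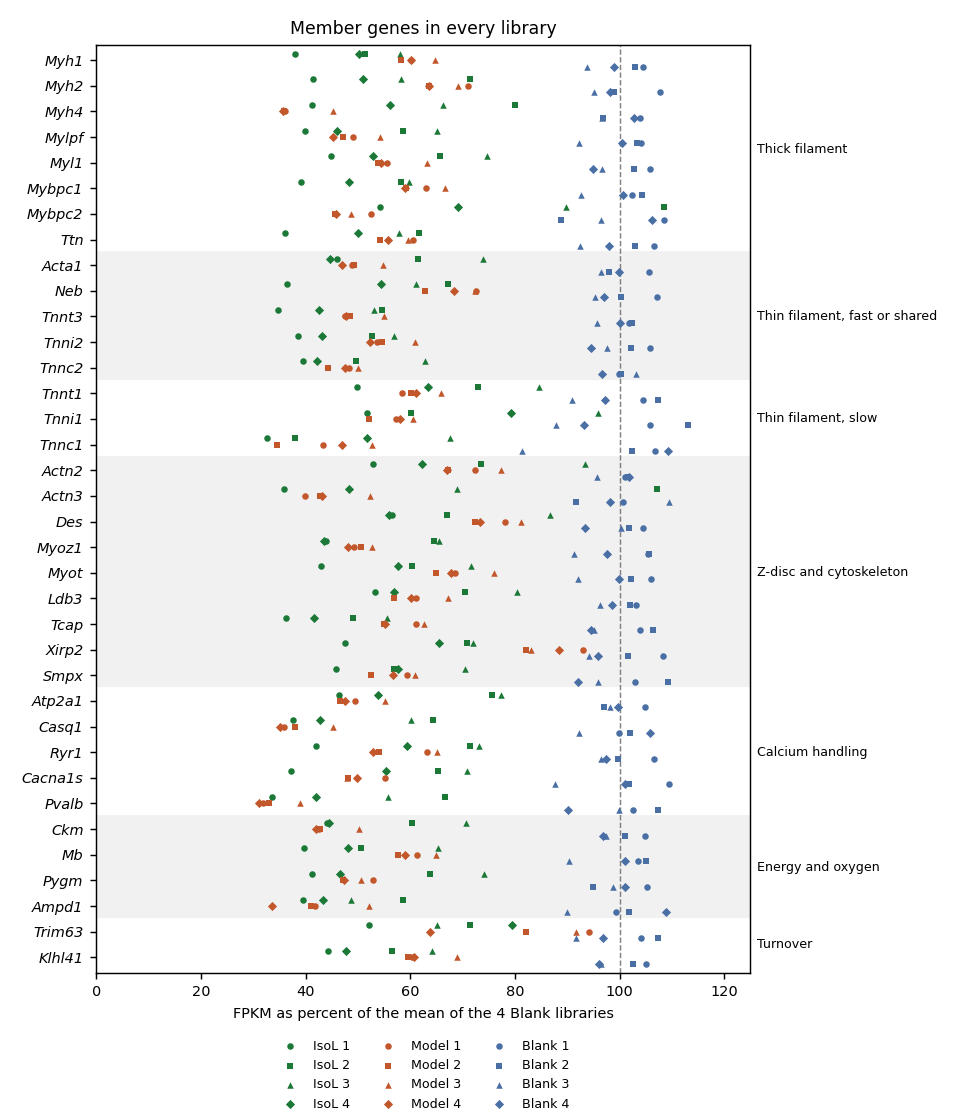
The FPKM of each of the 36 members in each of the 12 libraries, as a percent of the mean of the 4 Blank libraries (x axis, linear), with members down the page by role and 1 symbol per library. Model points cluster at a median of 53.2% to 60.8% per library, while IsoL points spread from a median of 41.3% in replicate 1 to 67.0% in replicate 3.

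The plot of every member in every library shows how evenly the libraries of a group moved. The median member stood at 41.3%, 64.0%, 67.0% and 50.6% of its Blank mean in IsoL replicates 1 to 4, and at 56.4%, 53.2%, 60.8% and 53.7% in Model replicates 1 to 4. IsoL replicate 1 was the lowest IsoL library for 33 of the 36 members, and the other 3 (Acta1, Des and Myoz1) were lowest in replicate 4. IsoL replicate 3 was highest for 25 members. IsoL replicate 2 was highest for 10, which were Myh2, Myh4, Mybpc2, Ttn, Neb, Tnnt3, Actn3, Casq1, Pvalb and Ampd1. The median coefficient of variation of a member was 22.1% in IsoL, 6.83% in Model and 5.44% in Blank, and the highest was 47.9% for Actn3 in IsoL.

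**Figure D2:**
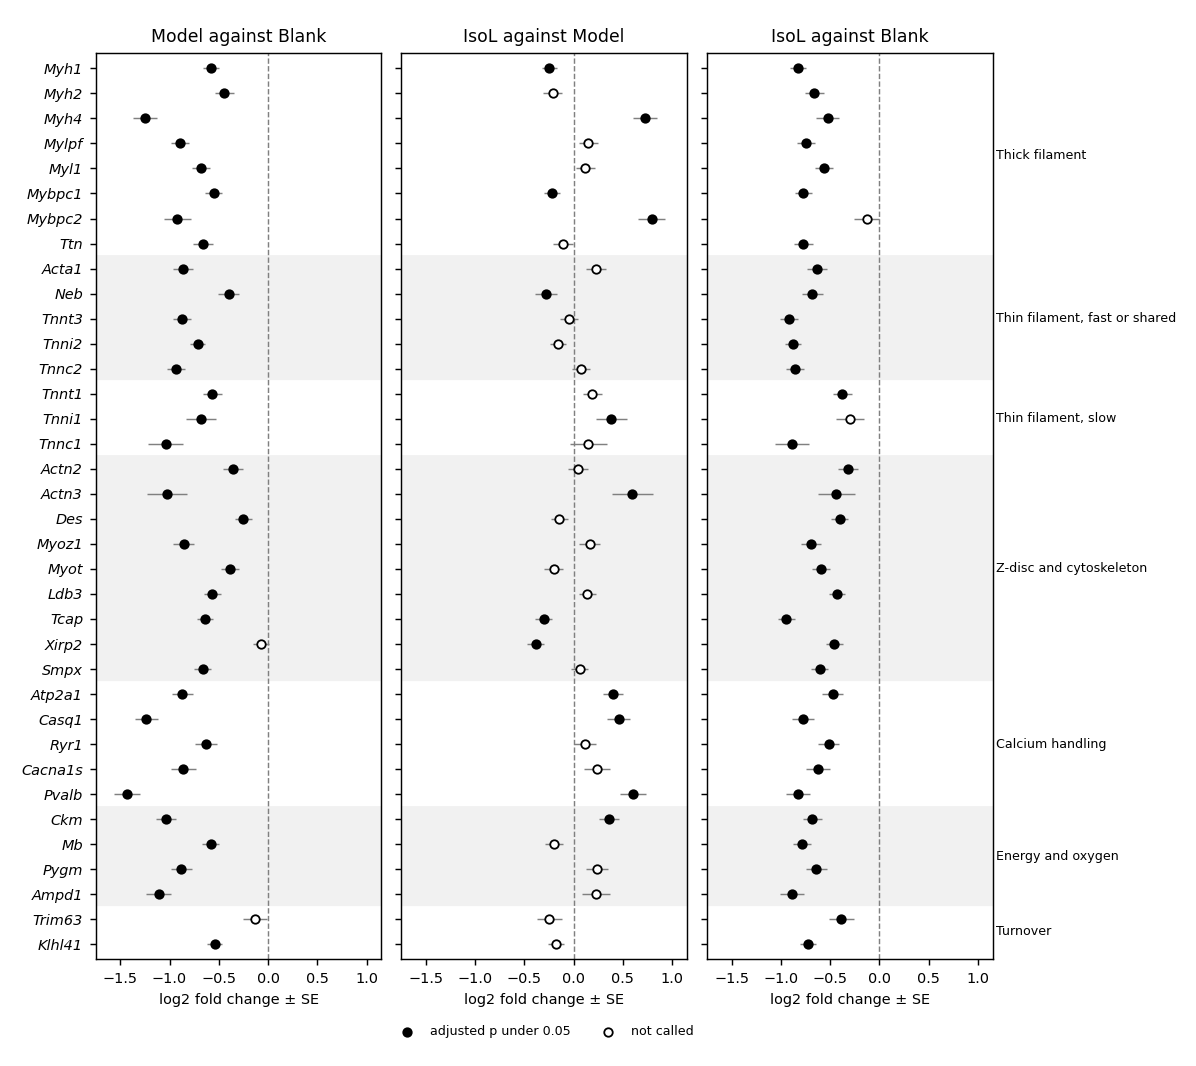
Log2 fold changes (x axis, points) with their SE (lines) of the 36 members in 3 comparisons, by role. Filled points passed an adjusted p under 0.05 in edgeR's quasi-likelihood test and open points did not. In Model against Blank 34 points are filled and all lie left of 0, whereas in IsoL against Model 5 filled points lie left of 0 and 8 lie right of it.

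Thick filament genes were lower in MC903-treated than in untreated ears. All 8 were called lower in Model against Blank, with a median of -0.67. In IsoL against Model, Myh4 and Mybpc2 rose, Myh1 and Mybpc1 fell, and Myh2, Mylpf, Myl1 and Ttn were not called. These 2 of 8 in each direction are close to the 24.1% higher and 25.1% lower among all tested genes.

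Myh4, the myosin heavy chain of the fastest fibres, had 62.3, 121, 100.3 and 84.9 FPKM in the IsoL ears, 54.6, 54.2, 68.6 and 54.1 FPKM in the Model ears and 157, 147, 146 and 155 FPKM in the Blank ears. All Model libraries lay under all Blank libraries, and 3 of the 4 IsoL libraries lay above every Model library. Its level was 2.38-fold lower in Model than in Blank (log2 fold change -1.25 ± 0.12, adjusted p = 6.62e-09 in edgeR's quasi-likelihood test). It was 1.65-fold higher in IsoL than in Model (log2 fold change 0.72 ± 0.12, adjusted p = 3.42e-05) and lower in IsoL than in Blank (log2 fold change -0.53 ± 0.12, adjusted p = 0.00056). Mybpc2, the fast form of myosin-binding protein C, which stabilises the thick filament, had 6.12, 12.2, 10.1 and 7.80 FPKM in the IsoL ears, 5.92, 5.15, 5.48 and 5.16 FPKM in the Model ears and 12.2, 10.0, 10.9 and 11.97 FPKM in the Blank ears. IsoL replicate 2 reached 108% of the Blank mean, and the IsoL and Blank libraries overlapped. It fell in Model against Blank (log2 fold change -0.92 ± 0.14, adjusted p = 3.93e-06), rose in IsoL against Model (log2 fold change 0.79 ± 0.14, adjusted p = 5.75e-05) and was not called in IsoL against Blank (log2 fold change -0.13 ± 0.13, adjusted p = 0.386; called lower without IsoL replicate 2).

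Myh1, the IIx heavy chain and the member with the most counts, had 62.6, 84.5, 95.6 and 82.8 FPKM in the IsoL ears, 98.9, 96.03, 106 and 99.1 FPKM in the Model ears and 172, 169, 154 and 163 FPKM in the Blank ears. In FPKM the groups were ordered without overlap, IsoL under Model under Blank. With FPKM divided by the TMM factors, IsoL replicate 3 stood at 98.6 and the lowest Model library at 97.8, so IsoL and Model overlapped on that scale. The change was -0.58 ± 0.08 in Model against Blank (adjusted p = 8.36e-07) and -0.25 ± 0.08 in IsoL against Model (adjusted p = 0.0117). Myh2, the IIa heavy chain, stood at 11.2, 19.2, 15.7 and 13.7 FPKM in IsoL, 19.1, 17.1, 18.6 and 17.1 FPKM in Model and 29.0, 26.6, 25.6 and 26.4 FPKM in Blank. It fell in Model against Blank (log2 fold change -0.44 ± 0.10, adjusted p = 0.000347) and was not called in IsoL against Model (log2 fold change -0.22 ± 0.10, adjusted p = 0.0767), where the libraries overlapped.

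Mybpc1, the slow form of myosin-binding protein C, gave FPKM values of 26.8, 39.8, 40.9 and 33.0 in IsoL ears, 43.1, 40.5, 45.6 and 40.4 in Model ears and 70.1, 71.3, 63.4 and 68.9 in Blank ears. It fell in Model against Blank (log2 fold change -0.55 ± 0.08, adjusted p = 4.4e-06) and was lower again in IsoL than in Model (log2 fold change -0.22 ± 0.08, adjusted p = 0.0361), a call made in 12 of 17 alternatives. Mylpf, the fast regulatory light chain and the thick filament gene with the highest FPKM, gave FPKM values of 131, 192, 213 and 150.5 in IsoL ears, 161, 154, 177 and 148 in Model ears and 340.2, 338, 301 and 329 in Blank ears. Every Model and IsoL library lay under every Blank library, with changes of -0.89 ± 0.10 in Model against Blank and -0.74 ± 0.10 in IsoL against Blank. Between IsoL and Model it was not called (log2 fold change 0.15 ± 0.10, adjusted p = 0.213). Myl1, the fast essential light chain, had 51.2 to 85.1 FPKM in IsoL, 61.3 to 71.9 FPKM in Model and 108 to 121 FPKM in Blank. Ttn, the giant spring protein titin, had 3.11 to 5.30 FPKM in IsoL, 4.66 to 5.20 FPKM in Model and 7.96 to 9.17 FPKM in Blank. Both fell against Blank in both groups and were not called between IsoL and Model.

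The 3 fast myosin genes share sequence, so their reads may be split unevenly. Of the 50-base words in their transcripts, 30.5% of Myh1, 24.6% of Myh2 and 18.9% of Myh4 also occur in another gene, mostly in one another. How shared reads were counted is not stated. As a percent of the summed FPKM of Myh1, Myh2 and Myh4 in each library, Myh4 stood at 45.8, 53.9, 47.4 and 46.8% in the IsoL ears, 31.6, 32.4, 35.4 and 31.8% in the Model ears and 43.9, 42.8, 44.8 and 45.1% in the Blank ears. All 4 Model libraries lay under the other groups, and all 4 IsoL libraries lay above all 4 Blank libraries. The share of Myh1 was 46.0, 37.6, 45.2 and 45.6% in the IsoL ears, 57.3, 57.4, 55.0 and 58.2% in the Model ears and 48.0, 49.4, 47.3 and 47.3% in the Blank ears, highest in every Model library. Myh2 held 7.42% to 8.55% in IsoL, 9.61% to 11.1% in Model and 7.67% to 8.10% in Blank.

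**Figure D3:**
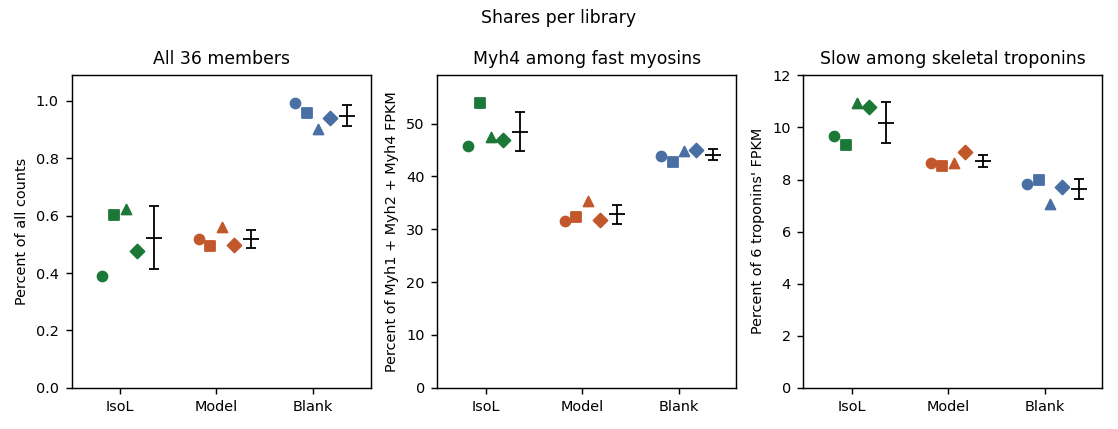
Shares per library in IsoL, Model and Blank ears, with 1 symbol per library and the mean ± SD (n = 4) in black. From left to right, the panels give the percent of all counts on the 36 members, the percent of fast myosin FPKM on Myh4 and the percent of skeletal troponin FPKM on the 3 slow troponins. Blank stands highest in the first panel (0.904% to 0.993%), Model lowest in the second (31.6% to 35.4%) and IsoL highest in the third (9.33% to 10.9%).

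Thin filament genes of the fast or shared type were lower in both treated groups, and 1 of the 5 was called between them. All 5 fell in Model against Blank (median -0.86) and in IsoL against Blank (median -0.86). Tnnt3, the fast troponin T that anchors the complex on tropomyosin, gave FPKM values of 155, 243, 236 and 189.5 in IsoL ears, 211, 216, 245 and 212 in Model ears and 452, 455, 425 and 445 in Blank ears. The 2 treated groups overlapped and lay well under Blank (log2 fold change -0.87 ± 0.09, adjusted p = 1.55e-08 in Model against Blank). Tnnc2, the fast calcium-binding troponin C, gave FPKM values of 41.8, 52.6, 66.5 and 44.7 in IsoL ears, 51.1, 47.0, 52.9 and 50.4 in Model ears and 106, 106, 109 and 102 in Blank ears. It had the largest fall of this role in Model against Blank (log2 fold change -0.94 ± 0.09, adjusted p = 3.12e-09) and was not called in IsoL against Model (log2 fold change 0.08 ± 0.09, adjusted p = 0.509). Of the words of Tnnc2, 47.9% also occur in Ube2c, an overlapping gene on the opposite strand with 3453 counts over the 12 libraries beside 10920 for Tnnc2, and whether counting used strand is not given.

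Neb encodes nebulin, the long ruler of the thin filament, and had 5.29, 9.77, 8.87 and 7.91 FPKM in the IsoL ears, 10.5, 9.13, 10.5 and 9.92 FPKM in the Model ears and 15.6, 14.6, 13.8 and 14.1 FPKM in the Blank ears. It was the thin filament member called in IsoL against Model (log2 fold change -0.28 ± 0.11, adjusted p = 0.0376), a call made in 8 of 17 alternatives, and its fall in Model against Blank was the smallest of the 5 (log2 fold change -0.40 ± 0.11, adjusted p = 0.00256). Acta1, skeletal alpha-actin, had 172 to 285 FPKM in IsoL, 181 to 211 FPKM in Model and 372 to 407 FPKM in Blank. Tnni2, the fast inhibitory troponin I, had 60.8 to 89.7 FPKM in IsoL, 82.5 to 96.2 FPKM in Model and 149 to 167 FPKM in Blank. Both fell in Model against Blank and neither was called in IsoL against Model.

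Slow troponins were a small part of the troponin RNA, and their summed share was larger in treated ears. Of the 3 slow and fast pairs, only the T forms separated all 3 groups. Tnnt1, slow troponin T, had 23.0, 33.6, 39.0 and 29.3 FPKM in the IsoL ears, 27.0, 27.8, 30.4 and 28.2 FPKM in the Model ears and 48.2, 49.6, 42.0 and 44.9 FPKM in the Blank ears. Tnni1, slow troponin I, had 1.41, 1.64, 2.61 and 2.16 FPKM in the IsoL ears, 1.56, 1.42, 1.65 and 1.58 FPKM in the Model ears and 2.88, 3.08, 2.39 and 2.54 FPKM in the Blank ears. Tnnc1, the troponin C of slow and cardiac fibres, had 3.17, 3.70, 6.58 and 5.04 FPKM in the IsoL ears, 4.22, 3.35, 5.13 and 4.57 FPKM in the Model ears and 10.4, 9.96, 7.91 and 10.6 FPKM in the Blank ears. All 3 fell in Model against Blank, with log2 fold changes of -0.57 ± 0.10 for Tnnt1, -0.68 ± 0.15 for Tnni1 and -1.04 ± 0.18 for Tnnc1. In IsoL against Model, Tnni1 rose (log2 fold change 0.38 ± 0.16, adjusted p = 0.0491), but this call was made in 3 of 17 alternatives, and Tnnt1 and Tnnc1 were not called. In IsoL against Blank Tnni1 was not called (log2 fold change -0.30 ± 0.14, adjusted p = 0.073), while Tnnt1 (log2 fold change -0.38 ± 0.10, adjusted p = 0.00132) and Tnnc1 (log2 fold change -0.89 ± 0.17, adjusted p = 8.71e-05) were lower.

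As a percent of the FPKM of the 6 skeletal troponins, the 3 slow genes together stood at 9.68, 9.33, 10.9 and 10.8% in the IsoL ears, 8.64, 8.53, 8.63 and 9.06% in the Model ears and 7.82, 7.97, 7.06 and 7.70% in the Blank ears. The 3 groups did not overlap in this share, with IsoL above Model and Model above Blank, and no test was run on it. Among the T forms alone, Tnnt1 held 12.2% to 14.2% of the FPKM in IsoL, 11.1% to 11.7% in Model and 8.99% to 9.82% in Blank. Among the I forms, Tnni1 held 1.94% to 3.08% in IsoL, 1.62% to 1.88% in Model and 1.53% to 1.88% in Blank. Among the C forms the groups overlapped, at 6.57% to 10.1% in IsoL, 6.66% to 8.84% in Model and 6.75% to 9.41% in Blank. Tnnc1 overlaps Nisch on the opposite strand, which had 39086 counts over the 12 libraries beside 1278 for Tnnc1, so its values are uncertain.

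Z-disc and cytoskeletal genes differed widely in how far they moved. Of these 9, 8 fell in Model against Blank, from -0.25 ± 0.09 for Des to -1.03 ± 0.20 for Actn3, and 9 of 9 fell in IsoL against Blank. Tcap, which encodes telethonin and caps titin at the Z-disc, gave FPKM values of 53.9, 72.7, 82.5 and 61.8 in IsoL ears, 90.6, 81.5, 92.8 and 81.8 in Model ears and 154, 158, 141 and 140.1 in Blank ears. Of the IsoL libraries, 3 of 4 lay under every Model library, and Tcap was called lower in Model against Blank (log2 fold change -0.64 ± 0.08, adjusted p = 4.82e-07) and in IsoL against Model (log2 fold change -0.31 ± 0.09, adjusted p = 0.00493). Xirp2, an actin-binding protein of muscle attachment sites and Z-discs, gave FPKM values of 4.31, 6.42, 6.53 and 5.94 in IsoL ears, 8.43, 7.45, 7.54 and 8.02 in Model ears and 9.82, 9.22, 8.54 and 8.69 in Blank ears. Its FPKM was lower in every Model library than in every Blank library, but with FPKM divided by the TMM factors the groups overlapped. The test did not call it (log2 fold change -0.07 ± 0.08, adjusted p = 0.473); without scaling factors it was called. It was lower in every IsoL library than in every Model library (log2 fold change -0.39 ± 0.09, adjusted p = 0.000698).

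Actn3, the alpha-actinin of fast fibres, gave FPKM values of 3.73, 11.1, 7.17 and 5.02 in IsoL ears, 4.15, 4.45, 5.43 and 4.49 in Model ears and 10.5, 9.53, 11.4 and 10.2 in Blank ears. In FPKM, IsoL replicate 2 lay among the Blank libraries and IsoL replicate 1 under all Model libraries, the widest spread of any member. Actn3 fell in Model against Blank (log2 fold change -1.03 ± 0.20, adjusted p = 0.000113) and rose in IsoL against Model (log2 fold change 0.59 ± 0.21, adjusted p = 0.0227), the second call being made in 10 of 17 alternatives and lost, among others, without IsoL replicate 2. Its call in IsoL against Blank (log2 fold change -0.44 ± 0.19, adjusted p = 0.0469) was also lost when any single Blank library or IsoL replicate 1, 3 or 4 was left out. Actn2, the broader muscle alpha-actinin, had 17.1 to 30.2 FPKM in IsoL, 21.6 to 25.0 FPKM in Model and 30.9 to 32.9 FPKM in Blank and changed by -0.36 ± 0.10 in Model against Blank. Des, the intermediate filament protein desmin, had 24.6 to 38.04 FPKM in IsoL, 31.8 to 35.6 FPKM in Model and 40.9 to 45.9 FPKM in Blank. Myoz1, a calcineurin-binding Z-disc protein of fast fibres, had 10.4 to 15.7 FPKM in IsoL, 11.5 to 12.6 FPKM in Model and 21.9 to 25.3 FPKM in Blank. Myot, the actin-bundling protein myotilin, had 20.6 to 34.3 FPKM in IsoL, 31.1 to 36.4 FPKM in Model and 44.1 to 50.7 FPKM in Blank. These 4 genes fell against Blank in both groups and were not called between IsoL and Model. Ldb3, a PDZ and LIM domain protein of the Z-disc, had 9.36 to 14.1 FPKM in IsoL, 9.99 to 11.8 FPKM in Model and 16.9 to 18.1 FPKM in Blank, and Smpx, a small muscle protein, had 13.3 to 20.5 FPKM in IsoL, 15.2 to 17.7 FPKM in Model and 26.7 to 31.7 FPKM in Blank, with the same calls.

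Calcium-handling genes were lower in MC903-treated ears, and 3 of the 5 were called higher in isoliensinine-treated than in MC903-treated ears. All 5 fell in Model against Blank (median -0.87). In IsoL against Model, Pvalb, Atp2a1 and Casq1 rose (median of the 5, 0.40), beside 24.1% of all tested genes. With limma-trend at either pseudocount Atp2a1 and Casq1 were not called, which left Pvalb. Pvalb, parvalbumin, the soluble calcium buffer that speeds relaxation of fast fibres, had 41.5, 82.5, 68.9 and 51.9 FPKM in the IsoL ears, 39.4, 40.8, 48.1 and 38.4 FPKM in the Model ears and 127, 133, 123 and 111 FPKM in the Blank ears. The Model libraries stood at 31.1% to 38.9% of the Blank mean, and 3 of 4 IsoL libraries lay above every Model library. This was the largest change of any member in Model against Blank, 2.70-fold lower (log2 fold change -1.43 ± 0.13, adjusted p = 2.02e-09). In IsoL against Model Pvalb rose (log2 fold change 0.60 ± 0.13, adjusted p = 0.000673).

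Atp2a1, the calcium pump of the sarcoplasmic reticulum in fast fibres, had 120.5, 196, 201 and 139.7 FPKM in the IsoL ears, 129, 121, 143 and 124 FPKM in the Model ears and 273, 252, 255 and 259 FPKM in the Blank ears. IsoL replicates 2 and 3 lay between the Model and Blank libraries, and IsoL replicate 1 lay under all Model libraries. It fell in Model against Blank (log2 fold change -0.87 ± 0.11, adjusted p = 1.66e-07) and rose in IsoL against Model (log2 fold change 0.40 ± 0.10, adjusted p = 0.00317). Of the words of Atp2a1, 18.0% are shared, nearly all with Rabep2 on the opposite strand, which had 4964 counts over the 12 libraries beside 127037. Casq1, calsequestrin, the calcium-binding protein inside the store, had 20.8 to 35.6 FPKM in IsoL, 19.4 to 25.1 FPKM in Model and 51.1 to 58.6 FPKM in Blank. Its changes were -1.24 ± 0.12 in Model against Blank (adjusted p = 2.94e-09) and 0.46 ± 0.12 in IsoL against Model (adjusted p = 0.00281). Ryr1, the release channel, had 3.12 to 5.44 FPKM in IsoL, 3.94 to 4.85 FPKM in Model and 7.18 to 7.93 FPKM in Blank, and Cacna1s, the voltage sensor that opens it, had 2.18 to 4.14 FPKM in IsoL, 2.80 to 3.23 FPKM in Model and 5.13 to 6.40 FPKM in Blank. Both were lower against Blank in both groups and not called between IsoL and Model.

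**Figure D4:**
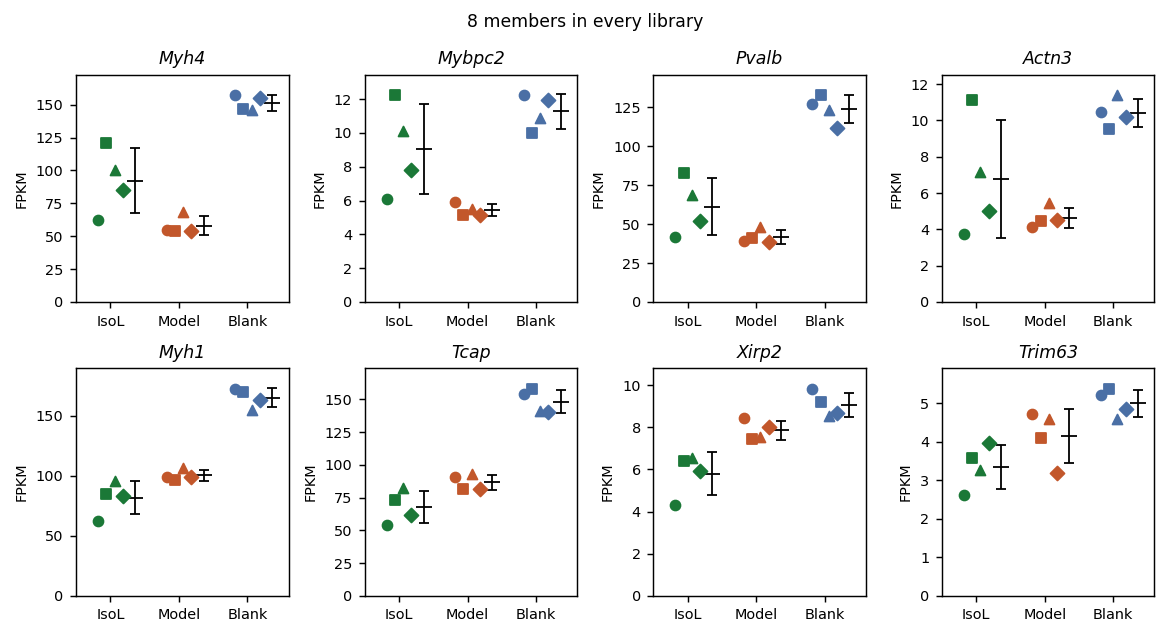
FPKM per library (y axes from 0) of 8 members in IsoL, Model and Blank ears, with 1 symbol per library and the mean ± SD (n = 4) in black. In the upper row, Myh4, Mybpc2, Pvalb and Actn3 were called higher in IsoL against Model. In the lower row, Myh1, Tcap and Xirp2 were called lower and Trim63 was not called. For Mybpc2, IsoL replicate 2 reaches 12.2 FPKM, within the Blank range.

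Genes of energy and oxygen supply were all lower in both treated groups than in Blank. The median was -0.96 in Model against Blank and -0.73 in IsoL against Blank. Mb, the oxygen store myoglobin, gave FPKM values of 94.7, 121, 156 and 115 in IsoL ears, 146, 138, 155 and 141 in Model ears and 247, 251, 215 and 241 in Blank ears. It fell in Model against Blank (log2 fold change -0.58 ± 0.09, adjusted p = 4.42e-06) and was not called in IsoL against Model (log2 fold change -0.20 ± 0.09, adjusted p = 0.0646), where IsoL replicate 3 lay above all Model libraries and the other 3 below. Ckm, muscle creatine kinase, which regenerates ATP, gave FPKM values of 55.3, 76.0, 88.9 and 55.8 in IsoL ears, 53.5, 53.7, 63.2 and 52.9 in Model ears and 132, 127, 123 and 122 in Blank ears. IsoL replicates 2 and 3 lay above every Model library, and replicates 1 and 4 within the Model range. Ckm fell in Model against Blank (log2 fold change -1.03 ± 0.10, adjusted p = 5.18e-09) and rose in IsoL against Model (log2 fold change 0.35 ± 0.10, adjusted p = 0.00552), a call made in 15 of 17 alternatives.

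Ampd1, the muscle AMP deaminase, gave FPKM values of 1.71, 2.53, 2.1 and 1.87 in IsoL ears, 1.81, 1.77, 2.25 and 1.45 in Model ears and 4.29, 4.40, 3.89 and 4.70 in Blank ears. It had the largest fall of this role (log2 fold change -1.11 ± 0.13, adjusted p = 7.69e-08 in Model against Blank), and the IsoL and Model libraries overlapped (log2 fold change 0.23 ± 0.14, adjusted p = 0.185). Pygm, the glycogen phosphorylase of muscle, had 18.8 to 33.7 FPKM in IsoL, 21.4 to 24.1 FPKM in Model and 43.2 to 48.0 FPKM in Blank and fell in Model against Blank (log2 fold change -0.88 ± 0.11, adjusted p = 2.62e-07).

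The turnover genes differed from each other. Trim63, the muscle ubiquitin ligase MuRF, which tags sarcomere proteins for breakdown and is known as a marker of muscle atrophy, had 2.61, 3.57, 3.26 and 3.97 FPKM in the IsoL ears, 4.71, 4.11, 4.59 and 3.19 FPKM in the Model ears and 5.21, 5.37, 4.59 and 4.84 FPKM in the Blank ears. Model replicates 1 and 3 reached into the Blank range, and in FPKM every IsoL library lay under every Blank library. Trim63 was not called in Model against Blank (log2 fold change -0.14 ± 0.12, adjusted p = 0.338) or in IsoL against Model (log2 fold change -0.25 ± 0.13, adjusted p = 0.112) and was lower in IsoL against Blank (log2 fold change -0.39 ± 0.12, adjusted p = 0.00866). Klhl41, a kelch protein that stabilises sarcomere proteins such as nebulin, had 20.9, 26.6, 30.3 and 22.5 FPKM in the IsoL ears, 28.5, 28.1, 32.6 and 28.6 FPKM in the Model ears and 49.6, 48.4, 45.5 and 45.3 FPKM in the Blank ears. It fell in Model against Blank (log2 fold change -0.54 ± 0.08, adjusted p = 1.83e-06) and was not called in IsoL against Model (log2 fold change -0.18 ± 0.08, adjusted p = 0.0615).

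As a percent of all counts of a library, the 36 members together stood at 0.390, 0.603, 0.623 and 0.478% in the IsoL ears, 0.519, 0.493, 0.562 and 0.498% in the Model ears and 0.993, 0.959, 0.904 and 0.939% in the Blank ears. Model and IsoL libraries lay between 0.390% and 0.623%, all under the lowest Blank library at 0.904%, and IsoL libraries lay on both sides of the Model libraries. Means were 0.523% ± 0.110 in IsoL, 0.518% ± 0.0313 in Model and 0.949% ± 0.0373 in Blank (SD, n = 4 each).

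Other genes of muscle are listed by role beside the members, and their median was below 0 against Blank for most roles. Of all 15403 tested genes, 10805 were called in Model against Blank, 5369 of them lower and the others higher. In IsoL against Blank 10853 were called, 5236 of them lower and the others higher. The share called lower was 34.9% in Model against Blank and 34.0% in IsoL against Blank. In IsoL against Model 25.1% were lower and 24.1% higher. A list count below that is near these shares shows nothing particular to the list. Of 30 other sarcomere genes tested, 23 fell and 2 rose in Model against Blank (median -0.63), and 8 fell and 4 rose in IsoL against Model (median 0.06). Myl3, a light chain of slow and heart muscle, had 0.420 to 1.0 FPKM in IsoL, 0.260 to 0.740 FPKM in Model and 1.24 to 1.95 FPKM in Blank and fell by 1.59 on the log2 scale in Model against Blank (edgeR adjusted p = 5.01e-05). Lmod3, a leiomodin that nucleates thin filaments, had 3.51 to 4.79 FPKM in IsoL, 3.83 to 4.62 FPKM in Model and 11.7 to 12.8 FPKM in Blank. It fell by 1.37 in Model against Blank (adjusted p = 8.28e-12). Pdlim7, a PDZ and LIM domain protein that is also made outside muscle, went the other way, with 3.53 to 4.69 FPKM in IsoL, 7.30 to 8.48 FPKM in Model and 2.83 to 2.98 FPKM in Blank and a rise of 1.56 in Model against Blank.

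Myh7, the slow heavy chain, had 2.15, 2.46, 3.34 and 3.34 FPKM in the IsoL ears, 1.86, 1.52, 1.74 and 1.73 FPKM in the Model ears and 4.41, 4.21, 4.14 and 4.21 FPKM in the Blank ears. It was higher in every IsoL library than in every Model library (log2 fold change 0.78 ± 0.11, edgeR adjusted p = 4.29e-06), and every IsoL library was lower than every Blank library. Myoz3, another calcineurin-binding Z-disc protein, rose by 0.61 ± 0.13 in IsoL against Model (adjusted p = 0.000418). In IsoL against Blank, 23 of the 30 fell and 4 rose (median -0.62), and Myl2, the slow and ventricular regulatory light chain, fell by 1.11.

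Of 21 tested genes of excitation and contraction outside the members, 16 fell and 1 rose in Model against Blank (median -0.72). Clcn1, the muscle chloride channel, fell by 1.13, Sypl2, a membrane protein of the triad, fell by 1.08, and Jph1, a junctophilin that holds the triad membranes together, fell by 0.90 on the log2 scale. Between IsoL and Model 2 fell and 3 rose (median 0.07). Kcnj2, an inward rectifier potassium channel also found outside muscle, had 3.13 to 4.68 FPKM in IsoL, 7.73 to 9.51 FPKM in Model and 9.70 to 10.6 FPKM in Blank, and fell by 1.06 in IsoL against Model (adjusted p = 1.33e-09). Sypl2 rose by 0.46 and Jph2, a second junctophilin, by 0.36. Relative to Blank, 17 of 21 fell and 1 rose in IsoL ears (median -0.62), the falls including Trdn, the junctional anchor triadin, by 0.90 and Cav3, muscle caveolin, by 0.83.

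Of 11 genes of the nerve-muscle junction, 6 passed the filter. In Model against Blank 3 fell and 1 rose (median -0.32). Ache, the enzyme that clears acetylcholine, had 1.19 to 1.47 FPKM in IsoL, 1.08 to 1.85 FPKM in Model and 9.16 to 10.9 FPKM in Blank, and fell by 2.71 (adjusted p = 8.3e-16). Lrp4, the agrin receptor, which skin also expresses, had 3.89 to 4.39 FPKM in IsoL, 3.59 to 4.30 FPKM in Model and 21.8 to 23.0 FPKM in Blank, and fell by 2.35 on the log2 scale. Chrna1, a subunit of the muscle acetylcholine receptor, had 1.37 to 1.75 FPKM in IsoL, 2.11 to 2.53 FPKM in Model and 1.28 to 1.88 FPKM in Blank; it rose by 0.68 in Model against Blank (adjusted p = 3.86e-05) and fell by 0.53 in IsoL against Model. In IsoL against Model 1 fell and 1 rose (median 0.04), the second being the receptor subunit Chrnb1, by 0.27. Relative to Blank, 2 fell and 1 rose in IsoL ears (median -0.42). Below the filter, Chrng, the fetal receptor subunit, had 15 counts over 4 IsoL libraries, 32 over 4 Model libraries and 13 over 4 Blank libraries.

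Of 22 tested genes of muscle metabolism, 17 fell and 3 rose in Model against Blank (median -0.50). Phkg1, a phosphorylase kinase subunit, fell by 1.21 and Acadm, an enzyme of fatty acid oxidation, by 0.87, while Pdk4, which slows pyruvate use, rose by 0.88 (adjusted p = 5.18e-10). Between IsoL and Model 6 fell and 3 rose (median -0.06), with Fabp3, a fatty acid carrier, at -0.78, Pdk4 at -0.47 and Adssl1, an enzyme of the purine cycle, at -0.46. Relative to Blank, 18 fell and 2 rose in IsoL ears (median -0.56), with Acadm at -1.17 and Cpt1b, the muscle carnitine transferase, at -0.94.

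Among 13 tested genes of the myogenic programme and satellite cells, the stem cells of muscle, 8 fell and 1 rose in Model against Blank (median -0.35). Mstn, myostatin, which restrains muscle growth, had 2.56 to 4.82 FPKM in IsoL, 3.01 to 4.17 FPKM in Model and 9.41 to 11.8 FPKM in Blank, and fell by 1.5 on the log2 scale. Between IsoL and Model 2 fell and 2 rose (median -0.07). Actc1, the actin of heart and developing muscle, had 5.47, 6.55, 8.54 and 4.73 FPKM in the IsoL ears, 2.98, 3.3, 2.73 and 3.26 FPKM in the Model ears and 6.80, 5.96, 4.54 and 6.42 FPKM in the Blank ears. It rose by 1.08 in IsoL against Model (adjusted p = 6.88e-06), without overlap. Tnnt2, the troponin T of heart and developing muscle, rose by 0.61 and Myf6, a muscle transcription factor, fell by 0.49. In IsoL against Blank 8 fell and 1 rose (median -0.42), the falls including Mef2a, a transcription factor that binds the MEF2 motif, by 0.80, and Myh8, the perinatal heavy chain, by 0.80. Myod1 had 90, 48 and 98 counts over the 4 libraries of IsoL, Model and Blank, Myf5 had 20, 39 and 73, and Pax7, the satellite cell factor, had 71, 55 and 94, all under the filter.

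As a whole, the list of muscle atrophy and stress genes did not follow the sarcomere genes, though some of its genes fell. Of its 19 genes, 7 fell and 10 rose in Model against Blank (median 0.27), and 10 fell and 4 rose in IsoL against Model (median -0.18). The 7 that fell in Model against Blank are close to the 34.9% called lower among all tested genes. Of the 10805 genes called there, 5369 were lower and the others higher. In IsoL against Model, 25.1% of all tested genes were called lower and 24.1% higher. Of its ubiquitin ligase genes, Trim55 (-1.22), Trim54 (-0.44), Fbxo31 (-0.54) and Fbxo32 (-0.36) were called lower in Model against Blank. Fbxo30 (0.29) and Cblb (0.52) were called higher there. The largest changes of the list were in genes that many cell types express. Gadd45a, a stress-induced growth arrest gene, had 13.4 to 18.7 FPKM in IsoL, 49.5 to 56.0 FPKM in Model and 6.64 to 8.32 FPKM in Blank; it rose by 2.91 in Model against Blank and fell by 1.67 in IsoL against Model. Runx1, a transcription factor of blood cells and denervated muscle, rose by 1.58 and Eif4ebp1, a brake on translation, by 1.45 in Model against Blank. Between IsoL and Model Bnip3, a mitophagy receptor, fell by 0.70 and the metallothionein Mt1 by 0.66. Relative to Blank, 7 fell and 9 rose in IsoL ears (median -0.11).

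Of 12 tested genes of the dystrophin complex and muscle membrane, 6 fell and 3 rose in Model against Blank (median -0.23), 2 fell and 2 rose in IsoL against Model (median -0.09), and 6 fell and 2 rose in IsoL against Blank (median -0.25). Sntb1, a syntrophin, had 2.67 to 3.58 FPKM in IsoL, 3.0 to 3.49 FPKM in Model and 9.02 to 9.51 FPKM in Blank, and fell by 1.37 in Model against Blank. Sgca, a sarcoglycan that is specific to striated muscle, fell by 0.66, and Dysf, the membrane repair protein dysferlin, rose by 0.99. Between IsoL and Model Lmna, a nuclear lamin of most cells, rose by 0.45 and Lama2, a laminin chain, fell by 0.45. Dmd, dystrophin itself, fell by 0.79 in IsoL against Blank.

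**Figure D5:**
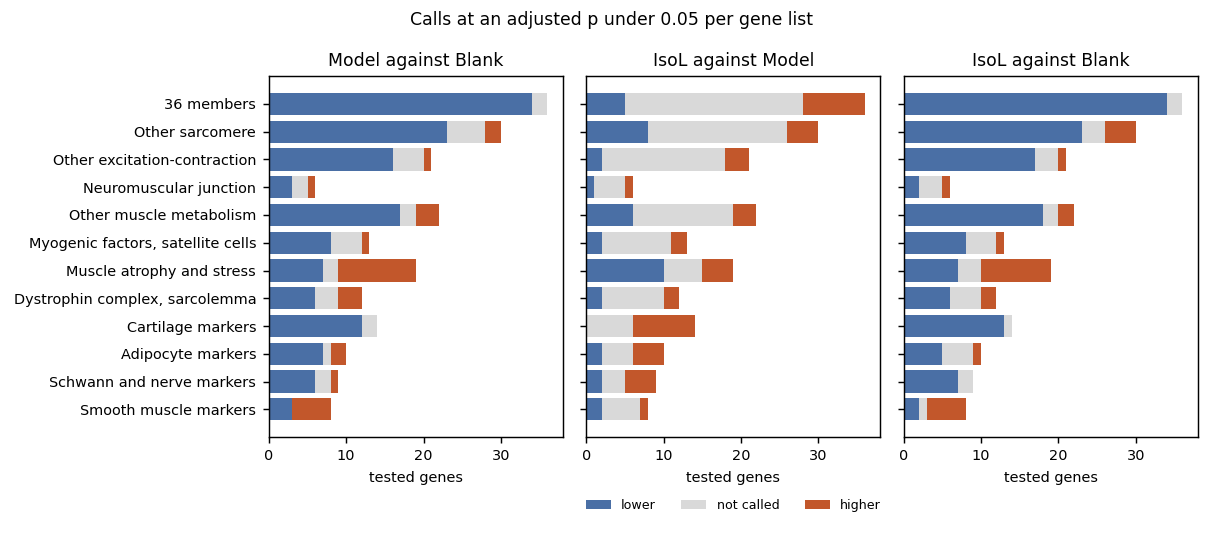
Calls per list in 3 comparisons at an adjusted p under 0.05 in edgeR's quasi-likelihood test, with the number of tested genes on the x axis and bars split into lower, not called and higher. Sarcomere, excitation-contraction and metabolism lists are mostly lower in Model against Blank and IsoL against Blank, with 34 of 36 members lower in each, and the smooth muscle list holds more higher than lower calls there.

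Markers of other tissues of the ear moved as well, and their part in the muscle results was not tested. The summed FPKM of 16 cartilage markers was 180.0 to 264 in IsoL, 185 to 201 in Model and 398 to 448 in Blank, and 12 of 14 tested fell and none rose in Model against Blank, while 8 rose and none fell in IsoL against Model. Markers of nerve and Schwann cells summed to 118 to 137 in IsoL, 128 to 134 in Model and 214 to 237 in Blank, with 6 of 9 lower and 1 higher in Model against Blank. Adipocyte markers summed to 137 to 168 in IsoL, 139.7 to 156 in Model and 175 to 195 in Blank, with 7 of 10 lower and 2 higher. Neutrophil markers summed to 624 to 838 in IsoL, 5560.0 to 6091 in Model and 61.0 to 144 in Blank, and macrophage markers to 829.6 to 1000.1 in IsoL, 1651 to 1818 in Model and 232 to 248 in Blank. All 10 of each passed the filter, rose in Model against Blank and fell in IsoL against Model. A marker under 1 FPKM in Blank could pass the filter only through a group where it was higher. Keratinocyte markers summed to 10236 to 11729.6 in IsoL, 4961 to 5979 in Model and 8217 to 8762 in Blank, fibroblast markers to 1603 to 1896 in IsoL, 2000.5 to 2105 in Model and 2217 to 2417 in Blank and endothelial markers to 73.0 to 82.1 in IsoL, 119 to 126 in Model and 47.7 to 50.8 in Blank. In Model against Blank, 6 of 10 keratinocyte markers were called lower and 4 higher. Of 10 fibroblast markers 3 were called lower and 6 higher, against the direction of their sum. Of 10 endothelial markers 9 were called higher and none lower.

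Smooth muscle markers were called higher more often than lower in Model against Blank, and the calls for heart markers gave no direction for their list. Smooth muscle markers summed to 58.6 to 67.1 in IsoL, 73.1 to 77.9 in Model and 45.7 to 48.9 in Blank, and of 8 tested 5 rose and 3 fell in Model against Blank. Among all genes called there, 5369 of 10805 were lower and the others higher. Heart markers summed to 10.7 to 13.7 in IsoL, 7.45 to 8.51 in Model and 2.93 to 3.56 in Blank; 3 of 8 passed the filter, of which Myl7 and Nppb rose in Model against Blank and Tnni3 was not called. A gene under 1 FPKM in Blank passes the filter only through a group where it is higher. The calls for Myl7 and Nppb therefore give no direction for the heart list. Of those under the filter, which were not tested, Myh6 had 31 to 41 counts per Model library and 81 to 111 per Blank library, without overlap. Summed over the 4 libraries of a group, Ryr2 had 36 counts in IsoL, 51 in Model and 79 in Blank, and Tnni3k had 6 in IsoL, 5 in Model and 19 in Blank. Myl4 and Nppa went the other way between Model and Blank. Myl4 had 217 counts in IsoL, 205 in Model and 143 in Blank, and Nppa had 3 in IsoL, 9 in Model and 3 in Blank.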

How the data were processed

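RNA from 12 mouse ear libraries was sequenced after poly-A selection, per the labels. The submitters' processing notes name fastp 0.22.0, HISAT2 2.1.0 and HTSeq 0.9.1, and the genome build and the strand setting are not given in the sources used here. The authors deposited 1 table that gives each gene's read count and FPKM per library. Recomputing FPKM from the counts, exonic lengths and library totals gave 100% of the deposited values within 0.0051.

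Members were matched by gene symbol. Genes reaching an FPKM of 1 in 4 or more libraries (15403) were tested on the deposited counts with edgeR 4.0.16 in R 4.3.3, using TMM factors, 1 quasi-likelihood fit of the 3 groups and Benjamini-Hochberg adjustment over all tested genes, two-sided, at 0.05. SE is the absolute log2 fold change divided by the square root of F. Alternatives used DESeq2 1.42.0, limma 3.58.1 on log2 of FPKM plus 1 or 0.1, other filters and scalings, a replicate block, and each library left out.

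Values are given in every library for the most abundant and most changed member of each role, Trim63, the slow troponins, the 3 fast myosins and members called against the majority, and up to 3 called genes per further list and comparison are named. The members and lists were chosen with earlier results of these data known, so no test over a list is given. Counts have no molecular identifiers, and depth limits their precision through counting error only. One symbol of a further list stood in 2 rows, and the row with more counts was used. Shared sequence was the percent of 50-base words of GENCODE M21 transcripts found in another gene. Promoter windows are from RefSeq.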

Additional observations from a re-analysis of the deposited data

Results flagged for a closer look

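In 117 groups of 4 libraries tested for a library far from the other 3 (36 members in 3 groups, and summed measures), 5 stood apart by Dixon's criterion at its 95% level, and chance gives about 1 in 20 groups. In Model replicate 3, Myh4 stood at 68.6 FPKM beside 54.1 to 54.6 FPKM in the other Model libraries. In the same library Tnnt3 stood at 244.7 FPKM beside 211 to 216 FPKM, Ckm at 63.2 FPKM beside 52.9 to 53.7 FPKM, and Klhl41 at 32.6 FPKM beside 28.1 to 28.6 FPKM. Model replicate 3 was the highest Model library for 28 of the 36 members. In Blank replicate 3, Actn2 stood at 30.9 FPKM beside 32.6 to 32.9 FPKM in the other Blank libraries.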

How the results depend on the processing

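In the fall of the members in Model against Blank, 34 or 35 of 36 were lower in each setting that tested all 36, and 32 of 33 under the stricter filter. The median there was -0.82 without scaling factors, -0.78 with limma-trend on log2(FPKM + 1) and -0.81 with a pseudocount of 0.1. In IsoL against Blank, 33 to 36 of 36 were lower, and the median was -0.84, -0.83 and -0.87 in these settings, and -0.75 to -0.54 with 1 library left out. In IsoL against Model, 10 members were lower without scaling factors and 10 lower and 13 higher without a filter. With only the 2 groups compared 3 were lower, and with limma-trend 3 were higher at either pseudocount. With 1 library left out, 3 to 10 were lower and 6 to 16 higher, and the median ran from -0.0138 (without IsoL replicate 3) to 0.22 (without IsoL replicate 1). With FPKM divided by the TMM factors, a check chosen after seeing the data, 1 member in place of 2 was lower in every IsoL than in every Model library. The causes were not tested.

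As a share of FPKM the members held 0.486% in Model and 0.994% in Blank, and without Myh1, the member with the most counts, 0.454% and 0.844% of counts. As count shares, slow troponins held 14.4% in IsoL, 12.2% in Model and 10.6% in Blank, and Myh4 held 42.4% of fast myosin counts in Blank. No member's call changed direction in any setting.

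With the replicate block, 34 members were lower in Model against Blank, 6 lower and 7 higher in IsoL against Model and 34 lower in IsoL against Blank. The numbers did not pair the libraries: over 12 same-numbered pairs the correlation of deviations ran from -0.132 to 0.0324.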
